A study of Homo sapiens with 2 samples.

Results

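Potassium channel genes were taken as the protein-coding genes of chromosomes 1 to 22 whose symbol begins with KCN, and 93 of 18978 protein-coding genes met this rule. They were examined for binding of OTX2, a homeodomain transcription factor, in D283 cells, an established medulloblastoma cell line grown as tumorspheres in medium with EGF and bFGF. The cells were unmodified tumorspheres that expressed OTX2, and 1 OTX2 ChIP library and 1 input library were made from them. No condition without OTX2 was sequenced in these files, so every value below describes 1 state of 1 cell line. The deposited list held 137412 peaks, and no replicate was available to give an experimental error. The intervals given below are 95% Wilson intervals for shares and exact Poisson intervals for fragment counts and densities, and both cover counting error only.

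Potassium channels let potassium leave or enter the cell through a selective pore and set the resting potential and the shape of electrical signals. Voltage-gated (Kv) channels open on depolarization, inward rectifiers (KCNJ) hold the resting potential, 2-pore channels (KCNK) carry leak current, and calcium- or sodium-activated channels follow ion levels inside the cell. Some family members form no channel alone but modify a partner, and auxiliary subunits such as KCNAB, KCNE, KCNIP and KCNMB proteins change the gating or traffic of pore subunits. KCNA1, which encodes Kv1.1, is used as a marker of Group 4 medulloblastoma.

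The interval read as near the transcription start site (TSS) began 5 kb before it and ended 2 kb after it, and an OTX2 peak overlapped it in 44 of the 93 potassium channel genes, or 47.3% (37.5 to 57.4). The share among all 18978 protein-coding genes was 58.5%. Because potassium channel genes were long, with a median of 48.8 kb against 28.0 kb for all genes, the other genes were also weighted to the same distribution over 10 length groups, which gave 60.4%. A peak lay in the gene body of 62 members, or 66.7% (56.6 to 75.4), against 70.7% of all genes and 77.3% of the other genes after length weighting. Peaks were present at both places in 38 members, near the TSS alone in 6 and in the body alone in 24. The remaining 25 members, 26.9%, had a peak at neither place, against 23.7% of all genes.

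Signal at the occupied members was close to that at other occupied genes. Fold enrichment is the authors' ratio of ChIP to local input coverage at the peak summit. The highest fold near the TSS had a median of 6.64 in the 44 members and 6.39 over all genes with a peak. The median of the highest pileup, the scaled ChIP coverage at the summit, was 37.5 in the members, equal to 51 fragments, and 40.4 over all genes, equal to 55 fragments. A peak of at least 5-fold enrichment was present near the TSS in 30 members, or 32.3%, against 39.6% of all genes. At 10-fold the counts were 14 members, 15.1%, and 14.0% of all genes. The local input at the members' highest peaks ran from 3.98, the lowest value the peak caller allowed, to 9.83.

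The promoters under 6 of the peaks are shown because in these the summit fell within the 250 bases upstream of a RefSeq start with at least 5-fold enrichment. Sequences are on GRCh38.p14 in the direction of the gene, end at the base before the start, and carry in capitals each match to TAATCC or TAATCT, the core letters bound by OTX-type homeodomains, searched on both strands.

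KCNV2: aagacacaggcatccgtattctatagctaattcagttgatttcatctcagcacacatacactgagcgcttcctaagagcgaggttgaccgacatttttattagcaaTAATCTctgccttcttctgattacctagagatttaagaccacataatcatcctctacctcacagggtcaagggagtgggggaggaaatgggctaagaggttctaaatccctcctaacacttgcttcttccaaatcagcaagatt

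KCNF1: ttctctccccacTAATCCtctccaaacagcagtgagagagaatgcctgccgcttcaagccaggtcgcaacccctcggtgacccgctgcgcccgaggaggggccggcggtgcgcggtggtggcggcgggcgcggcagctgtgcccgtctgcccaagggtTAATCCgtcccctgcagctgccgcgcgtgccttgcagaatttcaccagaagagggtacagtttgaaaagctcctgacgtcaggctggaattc

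KCNT1: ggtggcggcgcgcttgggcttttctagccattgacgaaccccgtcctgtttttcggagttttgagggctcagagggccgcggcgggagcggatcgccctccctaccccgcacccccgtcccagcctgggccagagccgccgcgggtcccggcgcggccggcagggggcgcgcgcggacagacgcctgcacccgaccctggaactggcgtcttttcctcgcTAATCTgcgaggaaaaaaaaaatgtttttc

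KCNN3: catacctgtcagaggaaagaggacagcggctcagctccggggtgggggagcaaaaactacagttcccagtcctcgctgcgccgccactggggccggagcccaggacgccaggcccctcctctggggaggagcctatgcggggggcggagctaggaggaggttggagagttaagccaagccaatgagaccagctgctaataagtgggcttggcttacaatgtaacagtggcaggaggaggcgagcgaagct

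KCNN2: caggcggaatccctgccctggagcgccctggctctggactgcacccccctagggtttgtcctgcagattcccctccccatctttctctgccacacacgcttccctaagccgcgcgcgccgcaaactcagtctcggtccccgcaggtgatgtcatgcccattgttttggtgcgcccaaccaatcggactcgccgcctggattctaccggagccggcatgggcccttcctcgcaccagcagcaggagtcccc

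KCNA4: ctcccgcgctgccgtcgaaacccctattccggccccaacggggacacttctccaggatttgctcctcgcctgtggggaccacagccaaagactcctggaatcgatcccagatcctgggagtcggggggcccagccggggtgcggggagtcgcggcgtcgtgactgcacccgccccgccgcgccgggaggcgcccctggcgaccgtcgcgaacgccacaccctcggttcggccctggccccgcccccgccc

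KCNV2 (9:2717260-2717509, plus strand) had TAATCT starting 144 bases upstream of the TSS, 54 bases from the summit. KCNF1 (2:10911684-10911933, plus strand) held TAATCC at 238 and 92 bases upstream, which were 89 and 57 bases on either side of its summit. In KCNT1 (9:135701935-135702184, plus strand) the single TAATCT lay 30 bases upstream, 9 bases from the summit. KCNN3 (1:154870282-154870531, minus strand), KCNN2 (5:114361820-114362069, plus strand, an alternative start under a peak of 7.13-fold) and KCNA4 (11:30017031-30017280, minus strand) held neither word in these bases. GC content of the 6 sequences ran from 42.8% in KCNV2 to 73.2% in KCNA4. In promoters of 300 bases, 250 before and 50 after the start, 1 of the words occurred in 15 of 107 RefSeq promoters of 69 members, or 14.0%, and in 10.6% of the 20468 protein-coding promoters. Among promoters that overlapped a peak, the counts were 5 of 16 for the members, 31.2% (14.2 to 55.6), and 12% for all genes. A match is a description of letters and was not tested as a binding site, and the other 24 members had no entry in the promoter table.

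**Figure D1:**
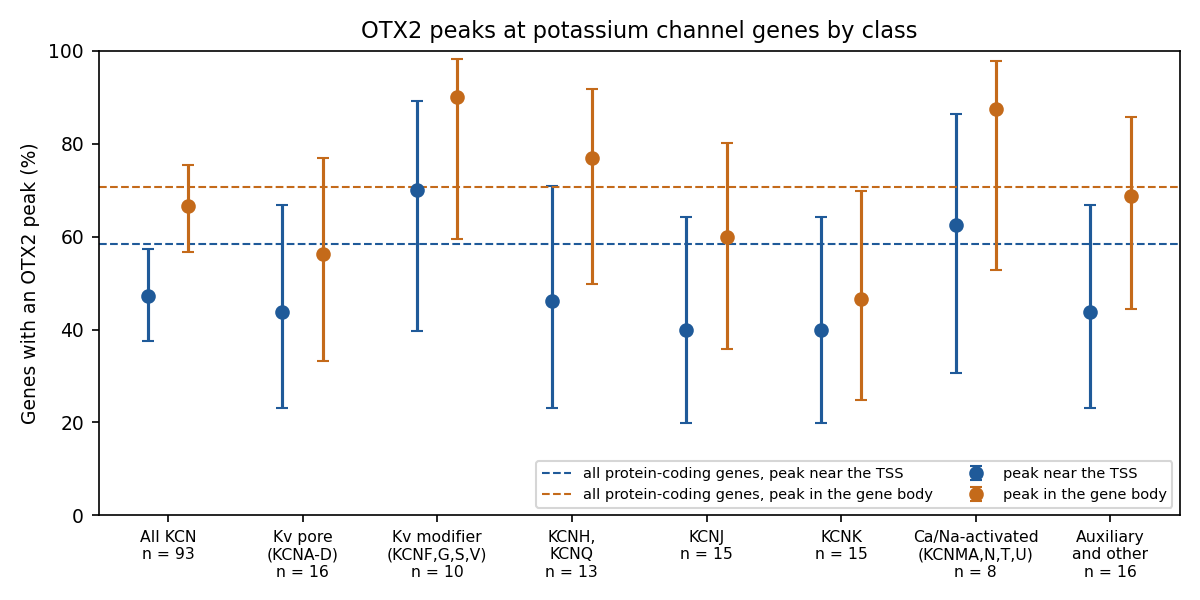
Percentage of genes holding a peak near the TSS (blue) and in the gene body (orange) for all 93 potassium channel genes and for each of 7 classes, with 95% Wilson intervals. The dashed lines mark all protein-coding genes at 58.5% and 70.7%, and the interval of every single class near the TSS includes the line for that place.

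Among the pore-forming Kv subunits, 7 of 16 genes had a peak near the TSS, 43.8% (23.1 to 66.8), and all 7 reached 5-fold enrichment. In this class 9 of 16 had a peak in the body, and 6 had none at either place. The Shaker-type KCNA genes, which encode low-threshold delayed or fast-inactivating channels, accounted for 5 of those 6. That was 5 of 8 KCNA genes, whose median length was 6.30 kb. Of other genes under 10 kb, 49.6% also had a peak at neither place. KCNA1 had no peak near its TSS or in its 8.35 kb gene body on chromosome 12. The nearest peak lay 51.0 kb upstream and held 60 fragments at 6.59-fold enrichment.

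KCNA1 lies between 2 other KCNA genes, and its neighbours differed in occupancy. KCNA6 (Kv1.6), on one side, had no peak nearer than 19.3 kb. KCNA5 (Kv1.5), on the other side, had 3 peaks near the TSS, with summits 4983, 2606 and 776 bp upstream. Their fold enrichments were 14.9, 3.79 and 5.07, from 100, 45 and 33 fragments. Another, taller peak of 19.8-fold and 214 fragments lay 3.56 kb downstream of the KCNA5 TSS, beyond the end of this 2.91 kb gene. The locus from KCNA6 to KCNA5 with its margins spanned 247 kb and held 5 peaks, of which 4 stood around KCNA5.

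The KCNA genes of chromosome 1 showed a similar unevenness. KCNA2 (Kv1.2) had 1 peak 537 bp downstream of the TSS of its gene record, with 43 fragments and 6.54-fold enrichment, whereas its neighbours KCNA10 (Kv1.8) and KCNA3 (Kv1.3) had none. This locus of 168 kb held 3 peaks in all, the tallest with 68 fragments at 10.2-fold, between KCNA2 and KCNA3. KCNA4 (Kv1.4), on chromosome 11, had 33 fragments at 5.07-fold 26 bp upstream of its TSS and a second peak of 22 fragments 749 bp downstream. KCNA7 (Kv1.7), on chromosome 19, had none.

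KCNB2 (Kv2.2), a delayed rectifier gene on chromosome 8, had 107 fragments at 8.85-fold in intron 1, with the summit 2192 bp downstream of the TSS, and 62 fragments at 5.82-fold 588 bp upstream. KCNC1 (Kv3.1), whose channels permit fast firing, was occupied near the TSS by a peak of 12-fold and 113 fragments 3485 bp upstream. In the A-type channel genes, KCND3 (Kv4.3) had a peak of 7.55-fold 1941 bp upstream, and KCND2 (Kv4.2) had none near the TSS but 16 in the body.

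KCND2 and KCNH2 are the 2 members on chromosome 7, where 37.4% of all protein-coding genes had a peak near the TSS. Peaks on this chromosome numbered 27.2 per Mb with a median local input of 3.99, compared with 54.9 per Mb and 6.0 on chromosome 1. Local input was highest on chromosome 8, with a median of 8.03. Without chromosome 7, 48.4% of the remaining members had a peak near the TSS, and the part of chromosome-wide coverage in the members' values was not tested further.

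**Figure D2:**
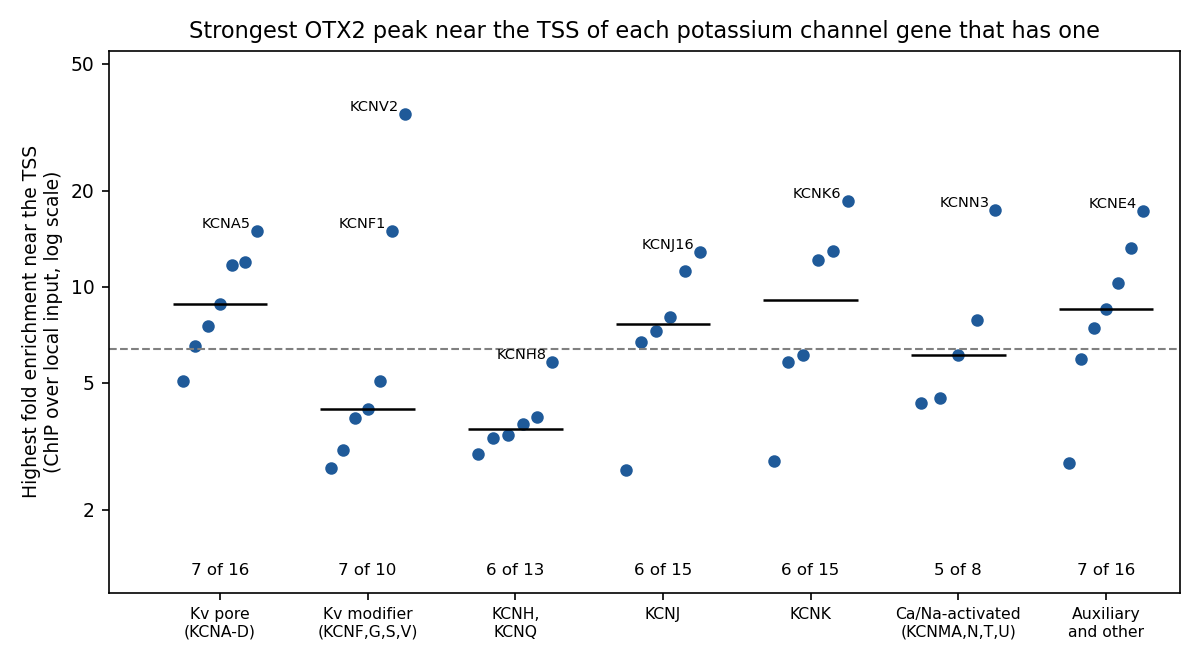
Highest fold enrichment near the TSS (log scale) of each of the 44 potassium channel genes with a peak there, by class, with the class median as a black bar and the median of 6.39 over all genes as a dashed line. KCNV2 stands above the others at 34.8, and 6 of 6 occupied KCNH and KCNQ genes lie below the dashed line.

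The modifier subunits of the KCNF, KCNG, KCNS and KCNV families assemble with pore-forming Kv subunits and are silent alone. Of these, 7 of 10 had a peak near the TSS, 70.0% (39.7 to 89.2), and 9 had one in the body. The peak counts hid a wide range of signal, as only 3 of the 7 reached 5-fold. KCNV2 (Kv8.2), best known from retinal photoreceptors, had the strongest peak near the TSS of any member, with 301 fragments (268 to 337), 34.8-fold enrichment and a summit 90 bp upstream. A second KCNV2 peak 2109 bp upstream held 125 fragments at 13.3-fold. KCNF1 (Kv5.1) had 121 fragments at 15-fold, centred 149 bp upstream. KCNG3 (Kv6.3) followed at 5.09-fold, 974 bp upstream, in a peak that also overlapped the window of MTA3. KCNS2, KCNG4, KCNS1 and KCNS3 had peaks of 4.15-, 3.89-, 3.08- and 2.71-fold, from 43, 25, 28 and 17 fragments. KCNV1 (Kv8.1), by contrast with KCNV2, had no peak at either place.

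The KCNH genes, which encode EAG, ERG and ELK channels, and the KCNQ genes, which encode the M-current and cardiac Kv7 channels, had weak peaks near the TSS. A peak was present in 6 of 13, 46.2% (23.2 to 70.9), of which 5 were KCNH genes and 1 a KCNQ gene. The median of the highest fold was 3.59, and KCNH8 (Kv12.1) alone passed 5-fold, at 5.80 with 38 fragments in exon 1. The other 5 were KCNH1 at 3.91, KCNH5 at 3.73, KCNH3 at 3.44, KCNQ5 at 3.35 and KCNH6 at 3.00. A body peak was present in 10 of 13 genes of the same class, 76.9%, against 70.7% of all genes. Among other genes of 200 kb or longer, the length range of the class median, the share was 98.2%. The strongest peak of some bodies in the class was high. Those maxima were taken over many peaks, 153 in the class, in genes with a median length of 360 kb. Fewer peaks were searched near each TSS, so the maxima at these places are not directly comparable. Weak peaks were present in the bodies too, such as one of 2.23-fold in KCNH1. KCNQ3, a subunit of the neuronal M-channel, reached 38.9-fold in intron 1 with 287 fragments, although it had no peak near its TSS. KCNH7 (ERG3) reached 31.1-fold with 379 fragments 365 kb from its TSS in intron 6.

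The inward rectifiers had a peak near the TSS in 6 of 15 genes, 40.0% (19.8 to 64.2), in the body in 9, and at neither place in 6. KCNJ16 (Kir5.1), which forms mixed channels with KCNJ10, had the strongest, with 156 fragments at 12.9-fold 2916 bp upstream of the TSS of its gene record. None lay near the start of its canonical transcript, and its 82.2 kb body held 12 peaks. KCNJ10 (Kir4.1), the glial partner, had none near its TSS, and its 2 body peaks lay outside the canonical transcript. KCNJ5 (GIRK4), which forms G-protein-gated channels, had 164 fragments at 11.2-fold 1561 bp upstream. The neuronal G-protein-gated genes KCNJ3 (GIRK1) and KCNJ6 (GIRK2) had body peaks only, and KCNJ9 (GIRK3) had none. The ATP-sensitive pore genes KCNJ8 (Kir6.1) and KCNJ11 (Kir6.2) were both occupied near the TSS, at 8.03- and 6.74-fold. KCNJ13 (Kir7.1), an epithelial channel of choroid plexus and retinal pigment epithelium, had 57 fragments at 7.26-fold 282 bp upstream. KCNJ2 (Kir2.1) had a weak peak of 2.67-fold.

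The 2-pore channels had the same share near the TSS, 6 of 15, and the lowest share of any class in the body, 7 of 15 or 46.7%. KCNK6 (TWIK-2) had 125 fragments at 18.6-fold, but the summit was 3450 bp upstream and the peak also overlapped the window of YIF1B. KCNK10 (TREK-2) had 111 fragments at 12.9-fold 802 bp upstream, and a taller peak in intron 1 reached 38.9-fold with 324 fragments. The related TREK-1 gene, KCNK2, had none near the TSS of its gene record. KCNK1 (TWIK-1) had 135 fragments at 12.1-fold 2699 bp upstream. KCNK9 (TASK-3) and KCNK15 (TASK-5) had peaks of 6.10- and 5.82-fold, KCNK3 (TASK-1) had none, and KCNK12 (THIK-2) had 18 fragments at 2.85-fold.

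Calcium- or sodium-activated channels were occupied near the TSS in 5 of 8 genes, 62.5% (30.6 to 86.3). A body peak was present in 7 of 8, in a class with a median length of 162 kb, and in 95.7% of the 2042 other genes of 100 to under 200 kb. KCNN3 (SK3), a small-conductance channel behind the after-hyperpolarization, had peaks on both sides of its TSS. The first, 69 bp upstream, held 139 fragments at 15.9-fold, and the second, in intron 1 with its summit 1591 bp downstream of the TSS, held 156 fragments at 17.4-fold. KCNT1 (Slack), a sodium-activated channel, had 52 fragments at 7.87-fold 21 bp upstream. The remaining occupied genes were KCNN4 at 6.10-fold, KCNMA1 at 4.48-fold and KCNN2 at 4.33-fold.

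Auxiliary subunits and KCNRG had a peak near the TSS in 7 of 16 genes, 43.8% (23.1 to 66.8), of which 6 reached 5-fold. The 3 KCNAB genes, encoding Kv beta subunits, were all occupied near the TSS of the gene record. Their peaks there were of 7.43-fold in KCNAB2, 5.95-fold in KCNAB3 and 2.81-fold in KCNAB1. The first of these peaks also overlapped the window of NPHP4 and the second those of TRAPPC1, CNTROB and ENSG00000262730. KCNE4, an inhibitory partner of KCNQ1 and Kv1 channels, had 138 fragments at 17.3-fold 4502 bp upstream and 73 at 11-fold 372 bp upstream. KCNE1 (minK), the KCNQ1 partner of the cardiac slow current, had 107 fragments at 13.3-fold 1282 bp upstream. Its partner KCNQ1 had no peak near the TSS. KCNMB2, a BK channel beta subunit, had 77 fragments at 10.3-fold near the TSS of its gene record, whereas KCNMB1, KCNMB3 and KCNMB4 had none there. At the start of the canonical transcript, KCNMB3 had 1 peak and KCNMB2 had 0. KCNIP4, a calcium sensor that binds Kv4 channels, had 100 fragments at 8.54-fold 3707 bp upstream and was the sole occupied KCNIP gene of 4 by this measure.

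**Figure D3:**
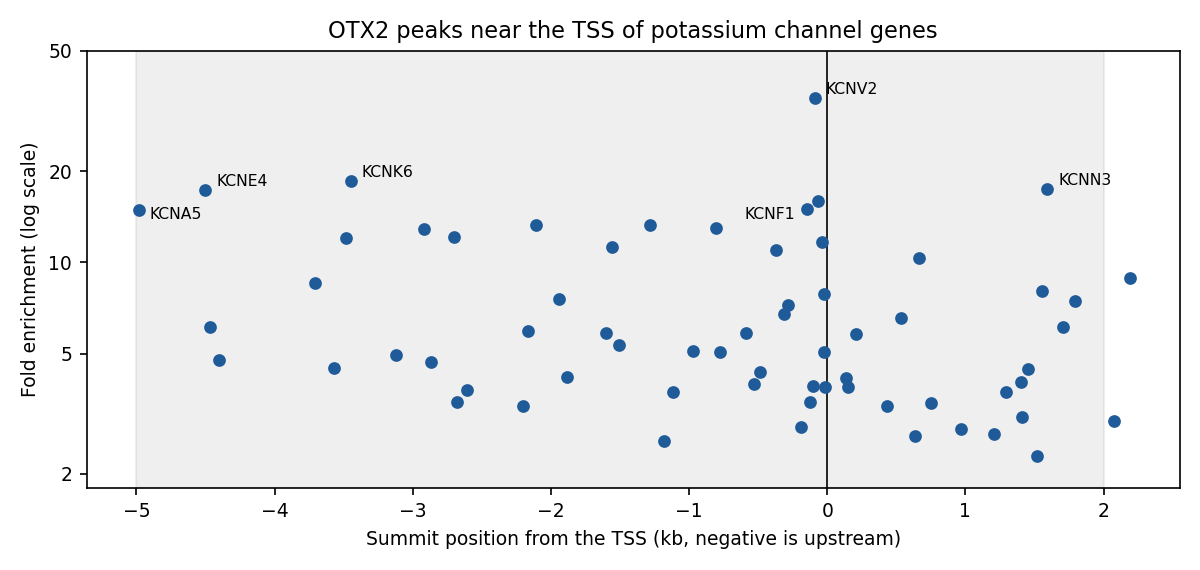
Position of the summit from the TSS (kb, negative upstream) and fold enrichment (log scale) of all 65 peaks that overlapped the interval shaded in grey around the TSS of 44 potassium channel genes. Summits were spread over the whole interval, and 2 lay beyond its downstream edge.

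The 65 peaks near the TSS of the members were spread widely over the interval, with 1 peak in 25 members, 2 in 17 and 3 in 2. For the strongest peak of each member, the summit lay at least 1 kb upstream in 16, under 1 kb upstream in 13, under 1 kb downstream in 7 and further downstream in 8. Its median distance from the TSS was 1244 bp, compared with 604 bp for the 11064 other genes with a peak. At the downstream limit, the single peak of KCNH6 straddled the edge of the interval, with its summit 2075 bp from the TSS. Just outside were KCNIP2, KCNN1 and KCNG1, whose nearest peaks began 2.43, 2.63 and 3.09 kb downstream. The gene record gives 1 TSS, the outermost, and many members have several. When any annotated transcript start counted, 11 further members gained a peak, for 55 of 93 or 59.1%. They were KCNC2, KCNC4, KCNG1, KCNH7, KCNIP1, KCNIP2, KCNIP3, KCNK2, KCNMB3, KCNN1 and KCNQ3. The length-weighted share of other genes then rose to 72.4%. At the start of the canonical transcript, 42 of 93 members had a peak, or 45.2%, against a length-weighted 62.2% of other genes. There KCNAB1, KCNAB2, KCNH5, KCNJ16 and KCNMB2 had none, while KCNIP1, KCNK2 and KCNMB3 were occupied.

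**Figure D4:**
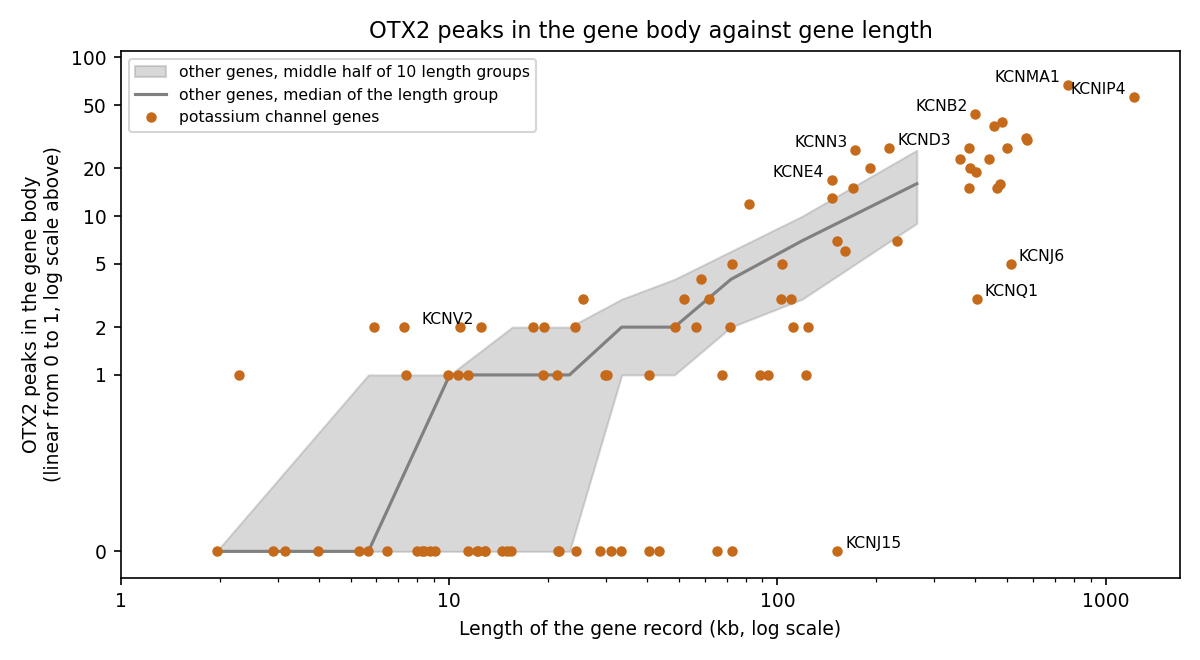
Number of OTX2 peaks in the gene body against the length of the gene record (kb, log scale) for the 93 potassium channel genes (orange points). The grey line and band give the median and the quartiles of other protein-coding genes in 10 length groups, drawn at the median length of each, and KCNN3 and KCND3 lie above the band while KCNQ1, KCNJ6 and KCNJ15 lie below the line.

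Gene bodies of the members held 714 peaks over 13.2 Mb of gene records, a density of 5.39 per 100 kb (5.01 to 5.80), against 5.81 per 100 kb for the other genes after length weighting. Only 46 of the 714 also lay in another protein-coding gene, 25 of them in KCNMB2. First introns of the canonical transcripts held 260 summits, 36.4%, later introns 320, 44.8%, and exons 13. A further 112 lay in the gene record but outside the canonical transcript. The 5 members with most peaks held 34.0% of the total. These were KCNMA1, the BK channel pore gene, with 67 peaks in 769 kb, KCNIP4 with 56 in 1220 kb, KCNB2 with 44 in 401 kb, KCNS3 (Kv9.3) with 39 in 484 kb, and KCNH1 (EAG1) with 37 in 457 kb. The KCNS3 count belonged mostly to its long record, since its canonical transcript of 54.3 kb held 5. At least 20-fold enrichment was reached in the body of 24 members, among them KCNS3 at 42.5 and KCNQ3 and KCNK10, both at 38.9. The KCNS3 peak lay 333 kb from the TSS, outside the canonical transcript. Longer bodies held more peaks to take a maximum from, and no share over all genes is given here for this count.

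In the 34 members of at least 100 kb, the density of body peaks had a median of 5.00 per 100 kb, with quartiles of 3.07 and 8.08. The 3454 other genes of that length had a median of 5.52 and quartiles of 3.11 and 8.30. Densities were highest in KCNN3 at 15, a value above that of 97.3% of other long genes, in KCND3 at 12.3, KCNE4 at 11.6 and KCNB2 at 11. The KCNE4 value belonged mostly to its long record, since its canonical transcript of 3.45 kb held 2 of the 17 peaks. The lowest densities were in KCNJ15 (Kir4.2), with no peak in 152 kb, KCNQ1 (Kv7.1), with 3 in 404 kb, KCNC1, with 1 in 122 kb, and KCNJ6, with 5 in 514 kb. KCNC1 and KCNJ6 thus showed opposite patterns. KCNC1 had a peak of 12-fold near the TSS and a nearly empty body. KCNJ6 had a 25.7-fold body peak 475 kb from the unoccupied TSS of its gene record, and its canonical transcript spans 309 kb.

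The 24 members with peaks in the body alone held 1 to 27 each, with a median of 3. Their strongest body peaks ran from 3.15-fold in KCNE2 to 38.9-fold in KCNQ3, with a median of 10.9. No share over all genes stands beside the count at 20-fold, which 7 members reached. Besides KCNQ3, KCNH7 and KCNJ6, these were KCNC2 (Kv3.2) with 189 fragments at 27.0-fold in intron 2, KCND2 with 248 at 26.2-fold in intron 1, KCNIP1 with 167 at 24.8-fold in intron 1 and KCNT2 (Slick) with 332 at 22.2-fold in intron 8. Close to the start, the first introns of KCNG1 (Kv6.1) and KCNMB4, the neuronal BK beta subunit, held 77 fragments at 11.6-fold and 66 at 9.50-fold, 3.28 and 3.61 kb downstream of the TSS. The strongest body peaks of KCNK13, KCNIP3, KCNG2, KCNC4, KCNK5, KCNN1, KCNIP2 and KCNMB3 lay between 3.59- and 8.16-fold, and those of KCNU1, KCNQ1, KCNJ3, KCNK2 and KCNJ10 between 10.2- and 18.3-fold.

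The 25 members with no peak at either place included KCNA1, KCNA3, KCNA6, KCNA7, KCNA10, KCNE3, KCNH2, KCNH4, KCNJ1, KCNJ4, KCNJ9, KCNJ12, KCNJ14, KCNJ15, KCNK3, KCNK4, KCNK7, KCNK16, KCNK17, KCNK18, KCNMB1, KCNRG and KCNV1. They were mostly short, with a median length of 12.9 kb, and 23 of them were among the 47 members under 50 kb. Their nearest peaks began 6.37 to 91.6 kb from the TSS, with a median of 17.6 kb. Among members of 10 to under 50 kb, 11 of 30 had a peak near the TSS, 36.7% (21.9 to 54.5), against 60.5% of the 7733 other genes of that length. At 200 kb or longer, 12 of 20 members had one, 60.0%, against 64.6% of other genes.

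**Figure D5:**
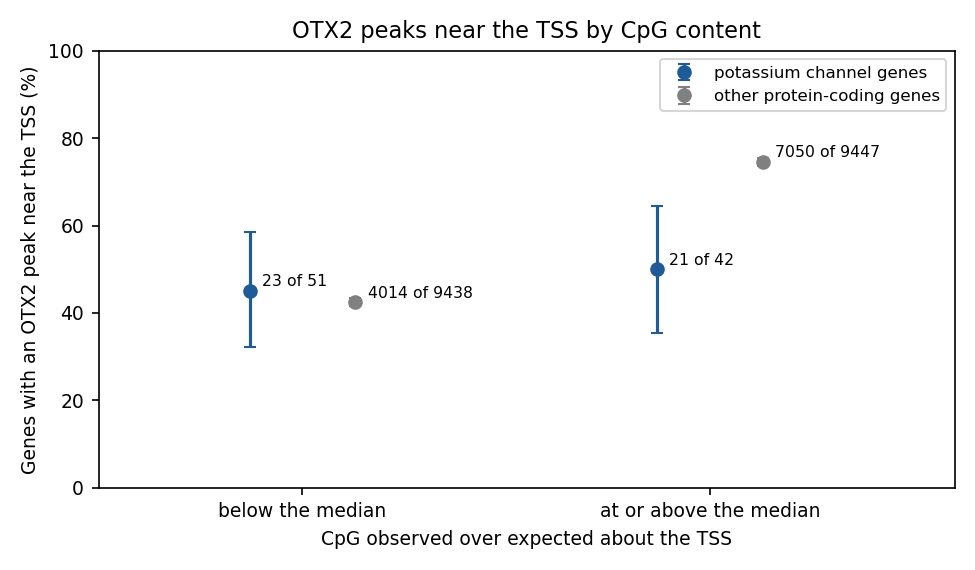
Share of genes bound by OTX2 near the TSS, in percent with 95% Wilson intervals, for potassium channel genes (blue) and other protein-coding genes (grey) below and at or above the median CpG observed over expected ratio around the TSS. Shares were close below the median, 45.1% and 42.5%, and apart above it, 50.0% and 74.6%.

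Sequence composition around the TSS was compared because CpG-rich start sites carried more peaks. In the 1 kb centred on the TSS, members had a median GC content of 62.6% and a median CpG observed over expected ratio of 0.652, against 59.3% and 0.693 for all genes. Below the median CpG ratio of all genes, 23 of 51 members had a peak near the TSS, 45.1% (32.3 to 58.6), and 42.5% of the other genes did. At or above it, the counts were 21 of 42 members, 50.0% (35.5 to 64.5), and 74.6% of the 9447 other genes. In this CpG-rich set, 11 members had a peak neither near the TSS nor in the body, among them KCNA1, KCNA3, KCNA6, KCNA7, KCNH2, KCNH4, KCNJ4, KCNJ12 and KCNK3. When the other genes were weighted to the members' CpG ratio in place of length, 57.6% of them had a peak near the TSS. The words TAATCC and TAATCT occurred a median of 6 times from 5 kb before to 2 kb after the TSS in the members and 9 times in all genes, counted on GRCh37. Members with and without a peak near the TSS had medians of 7 and 6, and the corresponding other genes had 10 and 8.

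Other ion channel and receptor genes were counted in the same way. Of 42 sodium, calcium and HCN channel genes, taken by symbol with auxiliary subunits among them, 15 had a peak near the TSS, 35.7% (23 to 50.8). In the body, 33 of them had one, at a median length of 111 kb. Of 41 GABA-A and glutamate receptor genes, the ligand-gated channels and receptors of fast and modulatory transmission, 20 had a peak near the TSS, 48.8% (34.2 to 63.5), and 37 had one in the body, at a median length of 183 kb. Body counts of these long families stand beside 70.7% of all genes and 95.7% of other genes of 100 to under 200 kb. That length class matches the family medians only. Median lengths within the families ran from 38.2 kb in HCN genes to 324 kb in glutamate receptor genes, and no length-weighted share was taken for them. The intervals of these families near the TSS overlapped that of the potassium channel genes, and none of the differences between families was tested.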

How the data were processed

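OTX2 ChIP and input DNA of D283 tumorspheres were each sequenced in 1 library. The authors used Bowtie2 2.2.4 to map reads to GRCh38, and peaks were called in MACS2 2.1.0.20140616 at a q-value cutoff of 0.05, and 61259377 of 84980793 ChIP fragments and 22521186 of 32292980 input fragments remained after filtering. The deposited pileup is a signal, the coverage at the summit as scaled by the peak caller. Its values rise in steps of 0.735, and each step was counted as 1 ChIP fragment. For fold enrichment the authors deposited a ratio of pileup to local input, and for the q-value its −log10. The input was the shallower library and limits the precision of each fold.

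Genes were taken from GENCODE release 44 by the GRCh38 positions it records, and 251 protein-coding genes without one were left out. A peak was counted on 1 bp of overlap. Promoter sequences came from RefSeq tables (GRCh38.p14), in which 69 of 93 members matched. GC, CpG and motif counts over all members were read around the same genes on GRCh37. Alternatives were another q-value, fold, window, TSS, gene body, weighting and annotation. Counting was tested on simulated data with planted peaks. No hypothesis test was run.

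The members and comparison lists were chosen with earlier results of these data known. Genes named with values were all KCNA genes, the 15 members of highest fold near the TSS, the highest of each class and the 5 with most body peaks. A few members that were counted are not reported by name here. Others named were chosen after their values were seen. Tables were made with pandas 2.3.3 and numpy 2.4.6 in Python 3.11.15, intervals with scipy 1.17.1, and plots with matplotlib 3.10.9.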

Additional observations from a re-analysis of the deposited data

How the results depend on the processing

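No paired analysis was possible because each group was 1 library. The share of potassium channel genes with a peak near the TSS, 47.3% in the report, was 32.3% for peaks of at least 5-fold, 30.1% within 1 kb of the TSS and 59.1% for any transcript start. The length-weighted share of other genes, 60.4% in the report, was 54.9% at a −log10 q of at least 5, 40.5% at 5-fold, 59.5% for summits inside the interval, 49.7% within 1 kb, 72.4% for any start, 62.2% for the canonical start and 61.7% without chromosome 7. Weighting on CpG ratio or GC content in place of length, chosen after seeing the data, gave 57.6% and 58.1%. The members' share was below that of the other genes under each of these settings. In the gene body, the weighted share of other genes moved from 77.3% to 74.9% at the stricter q, 68.1% at 5-fold, 71.9% for summits, 65.7% beyond 2 kb of the TSS, and, in alternatives also chosen after seeing the data, 76.0% with RefSeq records and 74.2% in the canonical transcript.

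The median highest pileup of the members rose from 37.5 to 66.2 at 5-fold. Body density fell from 5.39 to 4.75 per 100 kb at the stricter q and 3.46 at 5-fold. Among classes, the modifier subunits went from 70.0% to 30.0% at 5-fold, KCNH and KCNQ from 46.2% to 23.1% at the stricter q and 7.69% at 5-fold, and the auxiliary class from 43.8% to 18.8% within 1 kb and 68.8% for any start. The other 80 comparisons of a main value with an alternative stayed inside the counting interval. Some of them could not move, such as the members' body density under 20 length groups. For the median pileup, the interval was that of 1 fragment count and not of the spread over genes. With 1 library, replicate error is unknown.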

Other observations

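KCN-named genes outside the protein-coding set of chromosomes 1 to 22 were also read. Of 26 lncRNA genes with such a symbol, 11 had a peak near the TSS, 42.3%, against 39.9% of 18229 lncRNA genes. KCND3-AS1, antisense within KCND3, had 4 peaks there, the strongest with 140 fragments at 14.8-fold. KCND3-IT1 had 1 of 87 fragments at 13-fold. All of these peaks also lay in the KCND3 body and were counted there. KCNQ1OT1, the imprinted transcript antisense to KCNQ1, had 2, the stronger with 79 fragments at 11.8-fold, and this was also the strongest peak in the KCNQ1 body. KCNIP2-AS1 had 3, up to 9.87-fold. The peaks of KCNH1-IT1, KCNJ2-AS1 and KCNK15-AS1 were the same as the best peaks near the TSS of KCNH1, KCNJ2 and KCNK15, so they cannot be assigned to 1 gene. The 2 X-linked protein-coding members, KCND1 and KCNE5, had no peak near the TSS or in the body.

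Chromosome 21 carried 4 potassium channel genes, with a summed body density of 0.812 peaks per 100 kb, against 4.17 for all genes of that chromosome. KCNE1 alone had a peak near the TSS, and KCNE1 and KCNJ15 had none in the body.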
